A study of Rattus norvegicus with 6 samples.

Results

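Cadherins are calcium-dependent adhesion proteins that join neighbouring cells, and 10 of their genes were followed here in rat nucleus pulposus cells given recombinant Sonic hedgehog (rShh). The genes are Cdh1, Cdh2, Cdh3, Cdh4, Cdh5, Cdh6, Cdh10, Cdh11, Cdh13 and Cdh15, and each was matched by its symbol. They were chosen with earlier results of these data known, as were the gene lists set beside them. Of these 10, 9 had a row among the 19088 rows of the gene table, and 6 had enough counts to be among the 14775 genes tested. Cdh5 had no row and was not analysed here. The cells were primary cells of rats of the strain labelled SD, from the gelatinous core of the intervertebral disc, grown with fetal bovine serum. The treated samples, rShh 1 to 3, had received rShh at 200 ng/ml in DMSO for 48 h, and Control 1 to 3 had received DMSO alone for the same time. The labels name no allele or further agent for any of the 6 samples, and they do not state the sex or age of the animals or whether replicates are separate animals or cultures. The p-values therefore cover only the variation among these 6 libraries, part or all of which may be technical.

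Classical cadherins carry extracellular repeats that bind cadherins on the next cell and a cytoplasmic tail that holds catenins. Beta-catenin and plakoglobin bind the far part of the tail, alpha-catenin links that complex to actin, and the delta-catenin family binds near the membrane and keeps the cadherin at the surface. Type I members (Cdh1, Cdh2, Cdh3, Cdh4 and Cdh15) include the cadherins of epithelium, nerve and muscle, while Cdh5, Cdh6, Cdh10 and Cdh11 are grouped with the type II members. Cdh13 is not a classical cadherin in structure, because it has no cytoplasmic tail and is held in the membrane by a lipid anchor. N-cadherin, the product of Cdh2, is known from nucleus pulposus tissue, where clusters of cells adhere to each other.

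Library totals ran from 65116846 to 70031072 gene counts in the rShh group and from 50758195 to 55501124 in the Control group, and the mitochondrial share of counts was 3.25% to 3.36% in rShh libraries and 1.97% to 2.28% in Control libraries. Ptch1, the Hedgehog receptor that the pathway itself induces, stood at 32.6 ± 1.61 CPM (counts scaled to library size by TMM) in rShh cells and 12.5 ± 1.65 CPM in Control cells (SD, n = 3 each; log2 change 1.38, edgeR adjusted p = 2.42e-06). Gli1, the other standard readout of the pathway, had 25, 35 and 30 counts in rShh libraries and 22, 0 and 0 in Control libraries. It did not pass (log2 change 1.75, SE 1.12, edgeR adjusted p = 0.200), and its groups overlapped. The Y-linked genes Eif2s3y and Kdm5d had 3868 to 4159 and 2235 to 2335 counts in the rShh libraries and 0 in every Control library. Y-chromosome transcripts and the ligand therefore separated the samples in the same way, and the effects of sex or animal source and of rShh cannot be told apart in any comparison given here. Of 15 nucleus pulposus markers with a row, 14 reached 1 CPM in at least 1 library, among them Acan, Pax1 and Foxf1. Krt18, a keratin of notochordal cells, was below 1 CPM in every library, and Tbxt, Krt19 and Car12 had no row and were not analysed here.

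Nucleus pulposus cells carried 4 cadherin transcripts above 1 FPKM (the authors' unit, which divides fragments by transcript length and by depth) in both groups, Cdh11, Cdh13, Cdh3 and Cdh2. In rShh cells their order was Cdh11 at 28.0 ± 0.473 FPKM, Cdh13 at 17.5 ± 0.801, Cdh3 at 6.62 ± 0.459 and Cdh2 at 5.26 ± 0.0907 (SD, n = 3). The ranges of neighbours in that order did not overlap. In Control cells Cdh13 came first at 19.6 ± 1.53 FPKM, followed by Cdh3 at 14.4 ± 2.06, Cdh11 at 13.8 ± 2.00 and Cdh2 at 2.43 ± 0.455 (SD, n = 3). There the ranges of Cdh3 and Cdh11 overlapped, so their order was not resolved by these samples. The remaining 5 genes stayed below 0.5 FPKM in all 6 libraries. Ranked by mean FPKM over all gene rows, Cdh11 lay above 84.1% of rows, Cdh13 above 82.4%, Cdh3 above 73.2% and Cdh2 above 54.6%.

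**Figure D1:**
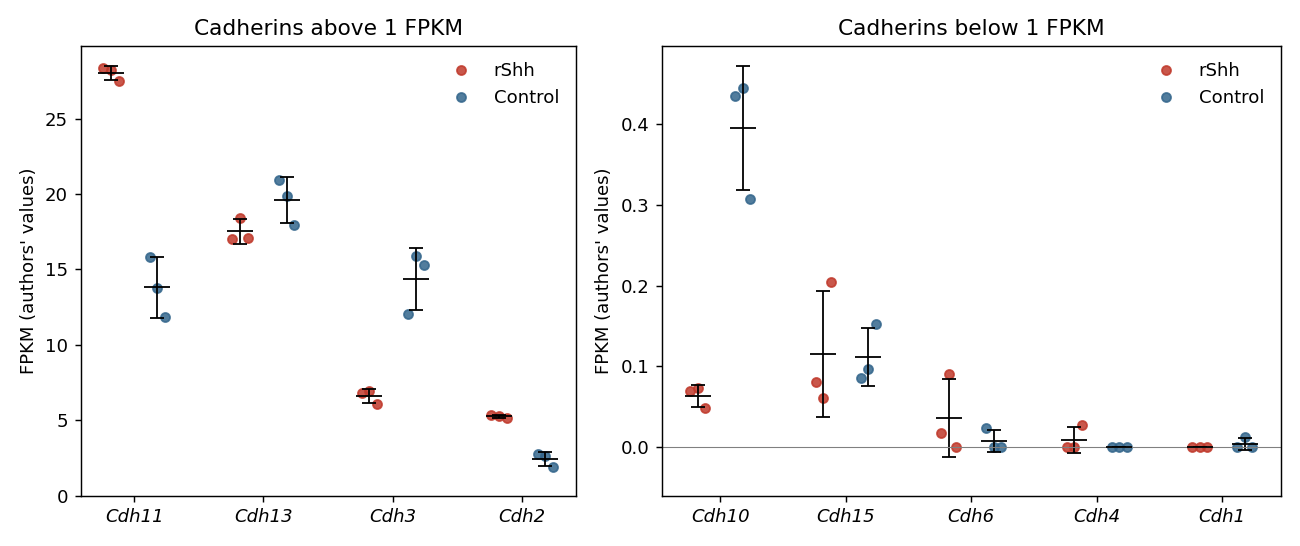
FPKM of each cadherin with a row, per library (points) with the mean and SD of each group of 3 (black), rShh to the left of Control; the 4 genes above 1 FPKM and the 5 below it have separate axes. Cdh11 and Cdh2 sit higher in all 3 rShh libraries, Cdh3 and Cdh10 sit lower in all 3, and Cdh13 differs little.

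The comparison of rShh with Control cells asked whether this set differed between the groups, without separating the ligand from sex or animal source. Cdh11 and Cdh2 rose, Cdh3 and Cdh10 fell, and Cdh13 fell slightly at the edge of the threshold, while Cdh15 did not pass (edgeR's quasi-likelihood test, Benjamini-Hochberg adjusted over all genes tested, threshold 0.05). Thus 2 of the 6 tested genes were higher and 3 were lower. Across all 14775 genes tested, 60.3% were called, 31.5% higher and 28.8% lower, so the number of calls among the cadherins is near the background. For 4 of the 6 the values of the groups did not overlap, 2 of them higher and 2 lower in rShh, where the same held for 68.1% of all genes tested (35.7% higher and 32.5% lower). The median log2 change of the 6 was -0.07, against 0.01 over all genes tested. Over the settings run, some of which tested more or fewer members, that median ran from -0.40 to 0.43, so its sign was not stable. These are bulk samples, in which fewer cells of a type and less RNA per cell cannot be told apart.

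Cdh11, or OB-cadherin, the type II cadherin of mesenchymal cells and osteoblasts, was the most abundant cadherin transcript of rShh cells. Its gene (ENSRNOG00000013481) lies on chromosome 19 at 2393059 to 2551245 on the plus strand, in the coordinates of the deposited table, whose genome build is not given in the sources used here. It had 11443, 11907 and 11003 counts in rShh libraries 1 to 3, and 5471, 4594 and 3732 counts in Control libraries 1 to 3. Every rShh library was above every Control library. On the depth-corrected scale the levels were 172 ± 4.82 CPM in rShh cells and 85.3 ± 11.6 CPM in Control cells (SD, n = 3 each), a 2.02-fold difference. The log2 change was 1.01 (SE 0.09, edgeR adjusted p = 5.66e-06), and FPKM gave a 2.03-fold difference.

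Cdh2, or N-cadherin, the type I cadherin of neural and mesenchymal cells, rose by a similar factor from a lower level. Its gene (ENSRNOG00000015602) is read from the minus strand of chromosome 18, between 8146971 and 8360684. Its counts were 1812, 1861 and 1738 in the rShh libraries, and 804, 733 and 508 in the Control libraries, with no overlap. The means were 27.1 ± 0.851 CPM in rShh cells and 12.6 ± 2.28 CPM in Control cells (SD, n = 3 each), or 2.15-fold higher in rShh. The log2 change was 1.10 (SE 0.13, edgeR adjusted p = 4.20e-05). Within the Control group the lowest library for both Cdh11 and Cdh2 was Control 3, while the rShh libraries lay close together.

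Cdh3, or P-cadherin, a type I cadherin best known from basal epithelium and placenta, fell. The gene (ENSRNOG00000020129) lies on chromosome 19 at 38669230 to 38719677 on the plus strand. It had 1936, 2084 and 1729 counts in rShh libraries and 2949, 3745 and 3416 counts in Control libraries, even though the Control libraries were shallower. This corresponded to 28.8 ± 2.07 CPM in rShh cells and 63.1 ± 9.55 CPM in Control cells (SD, n = 3 each), which is 2.19-fold lower in rShh. The log2 change was -1.13 (SE 0.11, edgeR adjusted p = 1.25e-05).

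Cdh1, E-cadherin, the cadherin of most epithelia, is the next cadherin along the same strand, starting 48789 bases beyond the end of Cdh3 (38768467 to 38838395). It had 0 counts in the 3 rShh libraries and 0, 4 and 0 counts in Control libraries 1 to 3, and was not tested. At this depth 0 counts in an rShh library allow up to 3 counts, or 0.0431 to 0.0465 CPM, as a limit of counting error only. Of 10 epithelial markers with a row, 7 stayed below 1 CPM in every library, Epcam among them with 3, 0 and 0 counts in rShh libraries and 17, 0 and 0 counts in Control libraries. The summed epithelial list was at 31.9 to 37.7 CPM in rShh libraries and 22.2 to 30.6 CPM in Control libraries, most of it Krt7. Krt7, a simple-epithelium keratin, was at 30.8 CPM in rShh cells and 25.1 CPM in Control cells and did not pass (edgeR adjusted p = 0.118). The only call in that list was Cldn3, a claudin, which rose to 0.435 CPM in rShh cells, against 0.0118 CPM in Control cells (edgeR adjusted p = 0.00125). Of the 4 epithelial markers tested, 1 rose and 3 did not pass, with the lowest log2 change at -0.31 (Ocln), and the part of epithelial cells in the Cdh3 result was not tested.

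Cdh13, or T-cadherin, the tail-less cadherin that binds adiponectin and low-density lipoprotein, changed least among the abundant members. The gene (ENSRNOG00000014371) covers 1123 kb of chromosome 19, from 50848736 to 51972103 on the plus strand. Its levels were 83.1, 87.3 and 81.6 CPM in rShh libraries, and 99.97, 96.4 and 87.1 CPM in Control libraries. The highest rShh library lay just above the lowest Control library, so the groups overlapped. The log2 change was -0.17 (SE 0.07, edgeR adjusted p = 0.0484), and in 10 of 15 alternative settings the adjusted p was at or above the threshold, up to 0.162. It passed with upper-quartile scaling (edgeR adjusted p = 0.00983) and without Control replicate 3 (edgeR adjusted p = 0.00553), and did not pass without any of the other 5 libraries (edgeR adjusted p 0.0664 to 0.162). The difference in Cdh13 was close to the spread between replicates.

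Cdh13 was the only member with more than 1 isoform row. The 14-exon isoform (ENSRNOT00000077053) spans 50848736 to 51971615 with a transcript of 3438 bases. The 12-exon isoform (ENSRNOT00000019298) starts inside it, at 51317425, and ends at 51972103, with a transcript of 3754 bases. The 12-exon isoform took 36.5%, 30.5% and 10.3% of the Cdh13 counts in rShh libraries 1 to 3, and 10.8%, 42.2% and 40.0% in Control libraries 1 to 3. One library of each group, rShh 3 and Control 1, had a low share, and the groups overlapped. Neither isoform passed, with a log2 change of -0.08 (SE 0.23, edgeR adjusted p = 0.800) for the 14-exon isoform and -0.40 (SE 0.63, edgeR adjusted p = 0.637) for the 12-exon isoform. Among the 18180 isoform rows tested 45.1% were called, 23.8% higher and 21.3% lower. The single isoforms of Cdh11 and Cdh2 were called higher and those of Cdh3 and Cdh10 lower, as for their genes.

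**Figure D2:**
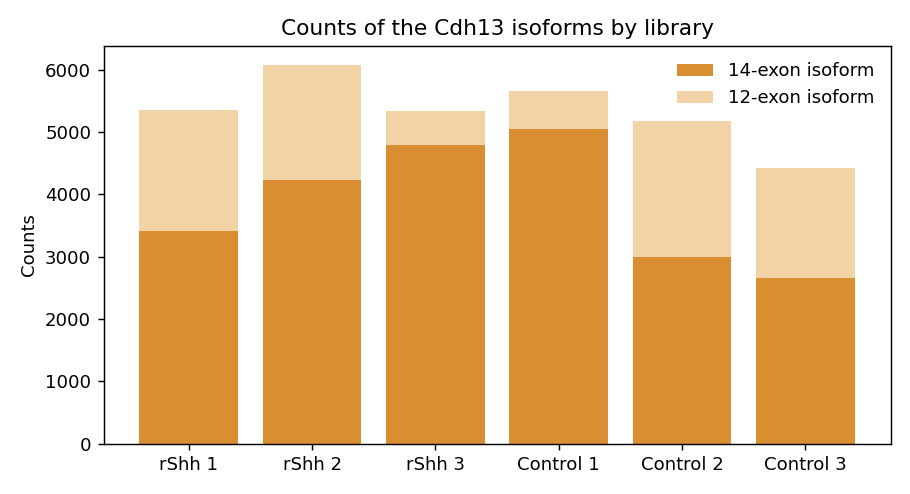
Deposited counts of the 14-exon and the 12-exon Cdh13 isoform, stacked, in each rShh and Control library. The 12-exon isoform is small in rShh 3 and Control 1 (551 and 610 counts) and lies between 1767 and 2183 counts in the other 4 libraries.

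Cdh10, a type II cadherin known mainly from brain, showed the steepest fall of the set at a level far below Cdh11, Cdh13, Cdh3 and Cdh2. The gene (ENSRNOG00000009771) lies on chromosome 2 at 69415057 to 69637524 on the plus strand. It had 23, 25 and 16 counts in rShh libraries, and 122, 120 and 79 counts in Control libraries. All rShh values were below all Control values. The means were 0.320 ± 0.0656 CPM in rShh cells and 1.98 ± 0.371 CPM in Control cells (SD, n = 3 each), or 6.20-fold lower in rShh. The log2 change of -2.62 (SE 0.37, edgeR adjusted p = 1.55e-04) was larger in size than that of 95.2% of genes tested. The summed level of neural and Schwann cell markers was lower in the same libraries, at 82.4 to 87.5 CPM in rShh cells and 347 to 384 CPM in Control cells. Of 8 such markers with a row, 3 fell, 2 did not pass and 3 were not tested, and 5 were below 1 CPM in every library. Of the 5 tested, 60% were lower and 0% higher, against 28.8% and 31.5% of all genes tested. They did not all go the same way, as the highest log2 change was 1.76, in a marker that did not pass. Most of the sum was S100b, a calcium-binding protein also made by nucleus pulposus cells (63.9 CPM in rShh cells, 204 CPM in Control cells), and Tubb3, a neuronal tubulin (19.3 CPM in rShh cells, 155 CPM in Control cells). Among the defining markers, Elavl4 was at 0 in the rShh libraries and at 0.0675 CPM in Control cells, and Sox10 was not analysed here. The part of such cells in the Cdh10 result was not tested.

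The same direction was seen for Cdh18, another type II cadherin of chromosome 2, which belongs to a list of other classical-type cadherins and not to the 10. It had 69, 24 and 42 counts in rShh libraries and 103, 141 and 81 counts in Control libraries (log2 change -1.56, SE 0.43, edgeR adjusted p = 0.0101). Cdh6, also a type II cadherin of that chromosome, had 4, 18 and 0 counts in rShh libraries and 4, 0 and 0 in Control libraries, too few to be tested. Since Cdh10 and Cdh18 were lower together, the 250 bases before the start of these 3 genes are shown, from RefSeq on GRCr8, 5′ to 3′ on the strand of each gene. RefSeq windows were found for 3 of the 10 members, Cdh6, Cdh10 and Cdh15. Capitals mark the longest runs that Cdh10 shares letter for letter with Cdh18 and with Cdh6, each 13 bases long.
Cdh10 (chr2:70355439-70355688, plus strand): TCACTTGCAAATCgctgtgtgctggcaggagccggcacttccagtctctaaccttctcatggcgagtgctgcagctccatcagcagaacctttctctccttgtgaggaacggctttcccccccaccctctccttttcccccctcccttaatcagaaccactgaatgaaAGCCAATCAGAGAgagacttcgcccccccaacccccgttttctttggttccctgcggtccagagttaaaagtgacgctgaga
Cdh18 (chr2:75075345-75075594, plus strand): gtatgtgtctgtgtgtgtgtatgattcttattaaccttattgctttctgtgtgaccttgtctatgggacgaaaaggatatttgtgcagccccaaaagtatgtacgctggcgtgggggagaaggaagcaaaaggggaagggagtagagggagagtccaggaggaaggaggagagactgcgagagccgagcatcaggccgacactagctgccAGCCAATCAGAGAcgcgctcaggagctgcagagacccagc
Cdh6 (chr2:63952288-63952537, minus strand): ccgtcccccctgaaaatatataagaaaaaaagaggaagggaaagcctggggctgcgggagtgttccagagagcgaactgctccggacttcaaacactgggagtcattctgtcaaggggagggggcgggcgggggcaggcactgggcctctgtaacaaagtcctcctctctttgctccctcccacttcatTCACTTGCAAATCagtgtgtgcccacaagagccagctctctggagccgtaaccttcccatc

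The run shared by Cdh10 and Cdh18, AGCCAATCAGAGA, holds a CCAAT box and was found on either strand in 19 of 33469 windows of the same length (0.0568%). The letters CCAAT alone were found in 34% of windows. The run shared by Cdh10 and Cdh6, TCACTTGCAAATC, was found in 2 of the 33469 windows (0.00598%), those of these 2 genes. Neither GACCACCCA, the GLI motif (0.338% of windows), nor CAGGTG, the E-box of Snail and ZEB factors (15.9% of windows), was found on either strand in the 3 windows printed. These matches describe letters, not binding. The 2 shared runs were picked as the longest between these windows, so at least 2 windows hold each by construction. Their counts therefore cannot show whether such sharing is unusual. Cdh10 and Cdh18, which share the first run, had 16 to 122 and 24 to 141 counts per library, and Cdh6, which shares the second with Cdh10, had 0 to 18. Whether either run bears on these levels or on the lower counts of Cdh10 and Cdh18 in rShh cells was not tested.

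Cdh15, or M-cadherin, the cadherin of muscle precursor cells, was read at a trace level that did not differ between the groups beyond its spread. It had 18, 14 and 44 counts in rShh libraries and 16, 18 and 26 counts in Control libraries, and the ranges overlapped. The log2 change was 0.03 with a standard error of 0.62 (edgeR adjusted p = 0.972), so these counts leave room for a sizeable difference either way. The direction changed with upper-quartile scaling (-0.04) and without rShh replicate 3 (-0.65), Control replicate 1 (-0.15) or Control replicate 2 (-0.05). Cdh4, or R-cadherin, the retinal cadherin, had 0, 0 and 6 counts in rShh libraries and 0 in each Control library. Neither Cdh4 nor Cdh6, or K-cadherin, known from kidney, reached the count filter. Together with Cdh1 these are 3 members with a row that were not tested. Of 8 muscle markers with a row, 4 were below 1 CPM in every library, and the summed list was at 10.5 to 13.3 CPM in rShh libraries and 3.07 to 7.16 CPM in Control libraries. Of the 6 tested, 2 rose (Des and Tnnt3), 1 fell (Pax3) and 3 did not pass. That is 33.3% higher and 16.7% lower, against 31.5% and 28.8% of all genes tested. Tnnt3 was near the threshold (edgeR adjusted p = 0.0438) and its groups overlapped, with 1.57 CPM in rShh 1 and 1.84 CPM in Control 1. Pax3, a factor of muscle precursors, had 0 counts in each rShh library and 23, 13 and 15 counts in Control libraries (edgeR adjusted p = 0.00112). Des, an intermediate filament of muscle, took most of the difference in the sum, with 7.34 CPM in rShh cells and 1.19 CPM in Control cells, while Mymk, which is needed for myoblast fusion, was at 0.202 CPM in rShh cells and 0.336 CPM in Control cells and did not pass.

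**Figure D3:**
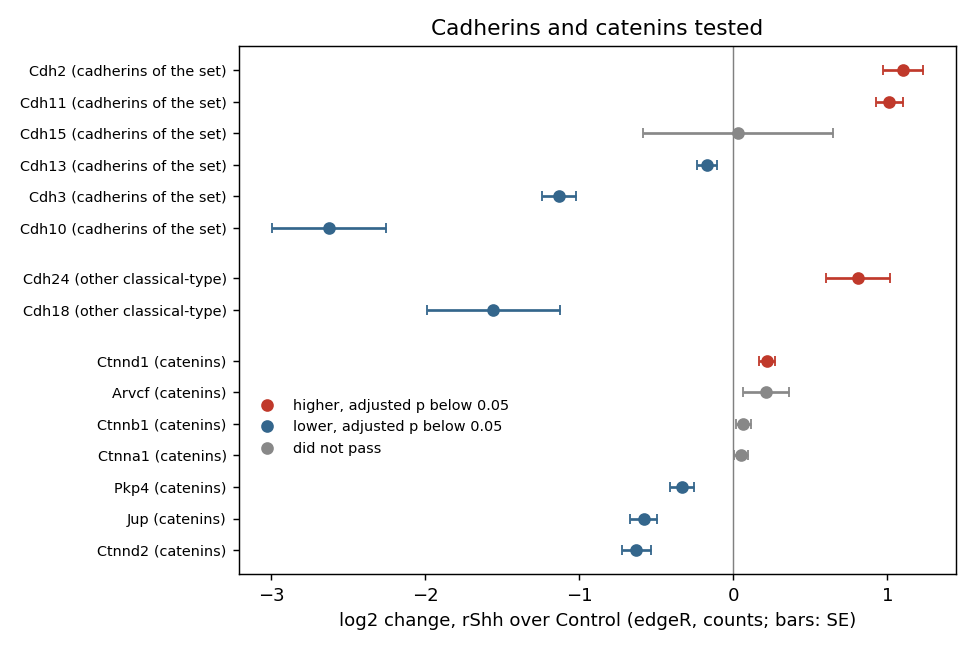
Log2 change of the count, rShh over Control, with its SE, for the 6 tested cadherins of the set, 2 other classical-type cadherins and 7 catenins. Changes run from -2.62 (Cdh10) to 1.10 (Cdh2), while the catenins lie between -0.63 and 0.22.

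The composition of the cadherin pool shifted toward Cdh11 and away from Cdh3. Summed over the 9 genes with a row, the level was 56.1 to 59.1 FPKM in rShh libraries and 47.4 to 52.7 FPKM in Control libraries. Cdh11 took 47.7% to 49.2% of that sum in rShh libraries and 24.9% to 30.4% in Control libraries. Cdh3 took 10.9% to 11.8% in rShh libraries and 23.1% to 32.2% in Control libraries. The share of Cdh13 was 29.5% to 31.2% in rShh libraries and 37.7% to 40.2% in Control libraries, and that of Cdh2 was 8.89% to 9.28% in rShh libraries and 4.04% to 5.31% in Control libraries. The FPKM ratio of Cdh11 to Cdh3 was 4.18, 4.05 and 4.51 in rShh libraries 1 to 3, and 1.31, 0.868 and 0.773 in Control libraries 1 to 3. These shares describe transcripts and carry no test, as they combine the members.

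**Figure D4:**
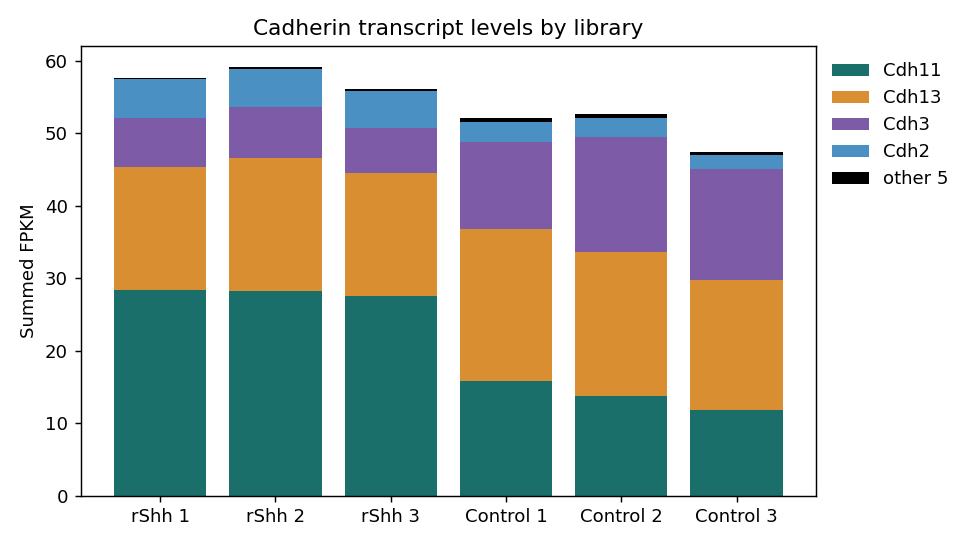
Stacked FPKM of the cadherins in each library, with the 5 genes below 0.5 FPKM pooled in black. Cdh11 is the largest part in each rShh library and Cdh13 in each Control library.

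The catenins, which hold cadherin tails, had log2 changes between -0.63 and 0.22. All 7 with a row were tested. Among them 1 rose (14.3%) and 3 fell (42.9%), against 31.5% and 28.8% of all genes tested. The other 3 missed the threshold, and the median log2 change was 0.05 (-0.02 with upper-quartile scaling). Ctnnb1, beta-catenin, was at 315 ± 2.36 CPM in rShh cells and 301 ± 8.24 CPM in Control cells, and Ctnna1, alpha-catenin, at 387 ± 11.7 CPM in rShh cells and 374 ± 8.57 CPM in Control cells (SD, n = 3 each). Neither passed (edgeR adjusted p = 0.258 and 0.396). Ctnnd1, the delta-1 catenin, rose to 309 ± 10.4 CPM in rShh cells, against 266 ± 8.08 CPM in Control cells (log2 change 0.22, edgeR adjusted p = 0.00359). Jup, plakoglobin, fell to 63.7 ± 1.31 CPM in rShh cells, against 95.3 ± 12.1 CPM in Control cells (log2 change -0.58, edgeR adjusted p = 2.53e-04). The 2 remaining falls in the list were in Ctnnd2 (log2 change -0.63) and Pkp4 (-0.33), while Arvcf did not pass (0.21, SE 0.15).

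Genes that tie adherens junctions to actin, and the nectins beside them, were mostly higher. Of 18 tested, 12 rose (66.7%, against 31.5% of all genes tested), 3 fell and 3 missed the threshold, and their median log2 change was 0.48, against 0.01 over all genes tested. Vcl, vinculin, which binds alpha-catenin under tension and also sits in focal adhesions, rose to 2309 ± 42.5 CPM in rShh cells, against 921 ± 59.4 CPM in Control cells (log2 change 1.33, SE 0.05, edgeR adjusted p = 2.41e-08). Afdn, afadin, which links nectins to actin, rose by 0.86 (log2) to 95.0 ± 5.79 CPM, against 52.3 ± 3.68 CPM in Control cells. The 3 falls were Nectin2, Shroom3 and Epb41l5, named here after their values were seen.

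Transcription factors of the epithelial to mesenchymal transition, several of which repress Cdh1 in epithelium, moved both ways. Of the 10 in the test, 6 rose and 2 fell, and the other 2 missed the threshold. That is 60% higher and 20% lower, against 31.5% and 28.8% of all genes tested, with a median log2 change of 0.54, against 0.01. Prrx1, a homeobox factor of mesenchyme, rose to 50.7 ± 3.72 CPM in rShh cells, against 10.6 ± 2.09 CPM in Control cells (log2 change 2.26, edgeR adjusted p = 3.60e-07). Zeb1, a zinc finger repressor, rose to 97.0 ± 0.862 CPM in rShh cells, against 37.2 ± 6.42 CPM in Control cells (log2 change 1.38). Twist2, a basic helix-loop-helix factor, fell to 2.53 ± 0.414 CPM in rShh cells, against 13.3 ± 2.07 CPM in Control cells (log2 change -2.39).

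Among proteases, endocytic adaptors, kinases and phosphatases that act on cadherins, 7 of 22 rose, 9 fell and 6 did not pass. Their shares of 31.8% higher and 40.9% lower stand beside 31.5% and 28.8% over all genes tested, and their median log2 change was -0.09. The 3 smallest p-values belonged to genes that fell. Ptprf, a receptor phosphatase found at junctions, was at 60.0 ± 3.74 CPM in rShh cells and 215 ± 3.84 CPM in Control cells (log2 change -1.84, edgeR adjusted p = 8.31e-09). The proprotein convertases Pcsk5 and Pcsk6 had log2 changes of -1.62 and -1.31. Adam10, the protease that sheds the N- and E-cadherin ectodomains and named here after its value was seen, rose to 81.7 CPM in rShh cells, against 38.7 CPM in Control cells (log2 change 1.08, edgeR adjusted p = 1.23e-05). Surface partners and receptors linked to cadherins numbered 13 in the test, with 9 higher, 3 lower and 1 short of the threshold (69.2% higher and 23.1% lower, median log2 change 0.25). Pdgfra, the PDGF receptor alpha chain, rose to 117 ± 2.90 CPM in rShh cells, against 58.6 ± 3.43 CPM in Control cells, Lrp6, a Wnt co-receptor, had a log2 change of 0.98, and Flt1, a VEGF receptor, rose to 11.5 ± 0.617 CPM in rShh cells, against 1.51 ± 0.703 CPM in Control cells.

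More distant relatives also differed in both directions. Of 21 tested protocadherins and atypical cadherins, 8 rose, 9 fell and 4 did not pass (38.1% higher and 42.9% lower, against 31.5% and 28.8% of all genes tested, median log2 change -0.27). Pcdh10, a delta protocadherin known from brain, had 17, 7 and 12 counts in rShh libraries and 1325, 960 and 946 counts in Control libraries (log2 change -6.77, SE 0.25, edgeR adjusted p = 1.43e-08). Dchs1, the ligand of Fat4 in planar polarity, fell to 33.1 ± 1.66 CPM in rShh cells, against 126 ± 8.01 CPM in Control cells. Cdhr1, a cadherin-related protein of photoreceptors, had 758, 837 and 692 counts in rShh libraries and 0, 0 and 6 in Control libraries. Of the other classical-type cadherins, 3 of 10 had a row. Besides Cdh18, Cdh24 was tested and rose to 4.91 ± 0.827 CPM in rShh cells, against 2.80 ± 0.526 CPM in Control cells (log2 change 0.81, edgeR adjusted p = 0.00692). Cdh8 had 0, 11 and 0 counts in rShh libraries and 23, 8 and 0 in Control libraries and was not tested. Of 6 desmosome genes tested, 3 rose (50%) and 3 missed the threshold (median log2 change 0.90). Pkp1, a plakophilin, rose to 175 ± 2.12 CPM in rShh cells, against 58.9 ± 7.68 CPM in Control cells, and the desmosomal cadherins Dsc3 and Dsg3 rose at trace levels. Dsc3 was at 6.41 ± 0.989 CPM in rShh cells and 0.429 ± 0.339 CPM in Control cells, and Dsg3 had 55, 82 and 108 counts in rShh libraries and 0 in each Control library.

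**Figure D5:**
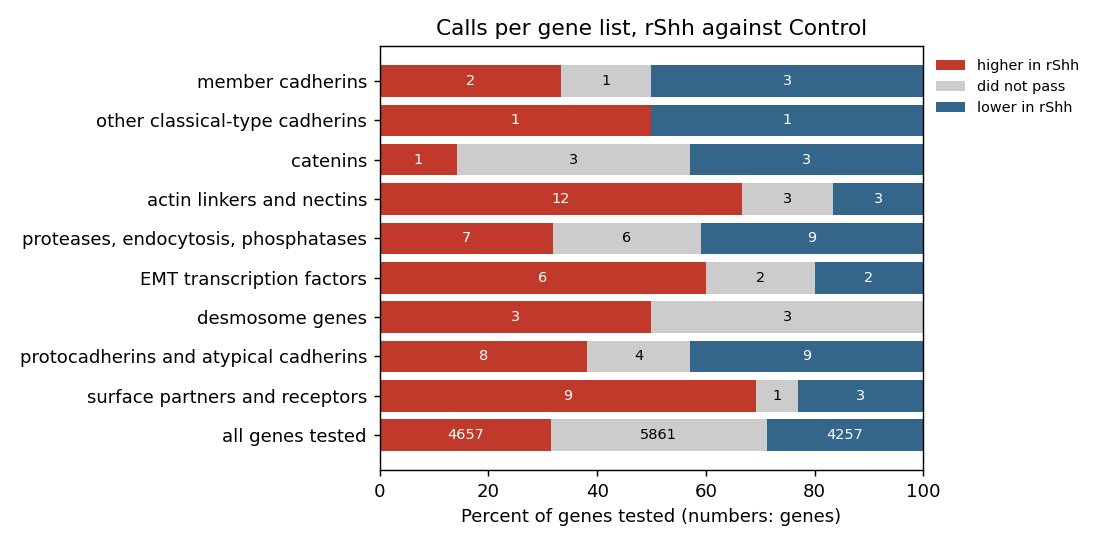
Share of the tested genes of each list that were higher in rShh (red), did not pass (grey) or were lower in rShh (blue), with the number of genes printed in each bar and all genes tested in the bottom bar. Actin linkers and nectins have 12 of 18 genes higher, and the cadherins of the set 2 of 6.

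Endothelial markers, listed because Cdh5 marks that cell type, were at a summed 39.5 to 42.1 CPM in rShh libraries and 37.2 to 45.3 CPM in Control libraries. Of 9 with a row, 6 were below 1 CPM in every library, 1 rose (Erg), 1 fell (Tek) and 4 did not pass, and Cldn5 was at 0 in the rShh libraries. Leukocyte markers summed to 13.03 to 15.5 CPM in rShh libraries and 11.0 to 14.1 CPM in Control libraries, nearly all of it Cd14, and none of the 3 tested passed (edgeR's quasi-likelihood test). Of the 14 nucleus pulposus markers in the test, 4 rose (28.6%) and 8 fell (57.1%), against 31.5% and 28.8% of all genes tested. Their median log2 change was -1.01, and the lowest was -3.90. Acan, the aggrecan core protein, and Hif1a, the oxygen-sensing factor, were among the rises and Chrd, a BMP antagonist, among the falls.

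The genes whose profile over the 6 libraries was nearest to that of Cdh11 were Washc4, Ncapd3 and Eps15, by Euclidean distance between centred log2 CPM (0.06, 0.07 and 0.08). Their log2 changes were 1.04, 1.02 and 1.05. Nearest to Cdh13, the most abundant member among those lower, were Emp2, Eprs and Daxx (0.05, 0.06 and 0.06). Of these last 3, Eprs fell (edgeR adjusted p = 0.0213), and Emp2 and Daxx missed the threshold.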

How the data were processed

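Poly(A) RNA of 6 samples was sequenced. The tools named in the submitters' processing notes are HISAT2 2.0.4, cutadapt 1.9, edgeR, StringTie 1.3.4d and DESeq2; which step each did, the genome build and the strand setting were not given in the sources used here. The authors deposited whole-number counts and FPKM values per gene (19088 rows) and per isoform (24343 rows). Every gene row has a name and at least 1 count. The FPKM unit is named per the file headers. The transcript length and exon number (other values) are the authors' deposited annotation.

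Counts were filtered with filterByExpr (minimum count 10), scaled by TMM and tested with glmQLFTest in edgeR 4.0.16 (R 4.3.3), group as the only term, over all genes or all isoforms, two-sided, Benjamini-Hochberg threshold 0.05. limma 3.58.1 on log2(FPKM + 1) and DESeq2 1.42.0 were among the alternatives. The edgeR gene and isoform fits, the DESeq2 fit and limma on log2 of scaled counts were tested on simulated data, and the other settings were not. Of the calls made there, 8.76%, 8.08%, 20.6% and 8.02% were false, in that order. The edgeR gene fit recovered 68% of 1.5-fold changes. The isoform fit recovered 6% of 1.5-fold and 36% of 2-fold changes. No replicate pair agreed within counting noise (chi-square per degree of freedom 10.5 to 50.5), so no library was treated as a repeat deposit; this does not show separate cultures. Named genes are all members, tested cadherins and catenins, the 3 smallest p-values of each other list, Ptch1, Gli1, Eif2s3y, Kdm5d and the nearest profiles; others are said to be chosen after their values were seen, as are marker genes given beside a result. Some genes that the rule or the lists hold are not reported here by name. The members and lists were chosen with earlier results of these data known. Antisense or near-identical genes may share reads.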

Additional observations from a re-analysis of the deposited data

How the results depend on the processing

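Cdh2, Cdh3, Cdh10 and Cdh11 kept their direction and their call in every alternative that tested them, with log2 changes of 0.88 to 1.19, -1.26 to -1.01, -2.77 to -0.39 and 0.92 to 1.11. The value of -0.39 for Cdh10 came from limma on log2(FPKM + 1) with no filter on low values, a scale that understates low genes. The number of members called lower was 1 with filtered limma on log2(FPKM + 1) and 1 on log2(FPKM + 0.1), where the minimum of 1 FPKM leaves Cdh10 out and Cdh13 did not pass. Isoforms called lower numbered 1 with limma. The same minimum left 1 desmosome gene and 9 protocadherins and atypical cadherins to test, of which 1 and 2 were higher. Leaving out each library in turn gave 2 members higher and 2 to 3 lower, 2 isoforms higher and 2 lower, and 4162 to 4878 genes higher and 3676 to 4374 lower. Cdh15, never called, had a log2 change of -0.0376 with upper-quartile scaling and -0.10 with the replicate block, and ran from -0.65 to 0.34 as libraries were left out. The 14-exon Cdh13 isoform ran from -0.22 to 0.20 and the 12-exon isoform from -0.80 to -0.02, neither called; the cause was not tested.

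Same-numbered libraries did not deviate together (correlations of -0.06, -0.02 and -0.04 over 14775 genes). This gives no sign of pairing by number, but so few libraries cannot exclude it. With the replicate block 4470 genes were higher and 3970 lower, and among the members only the call of Cdh13 was lost (log2 change -0.17, edgeR adjusted p = 0.0639). Upper-quartile scaling gave 4273 genes higher and 4798 lower. Depth limits Cdh1, Cdh4, Cdh6 and Cdh15, with at most 44 counts in a library.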
